A study of Mus musculus with 6 samples.

Results

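The apolipoprotein L (Apol) genes of mouse chromosome 15 were examined in the brainstem of WT and Rag1−/− mice. All rows of the expression table whose symbol begins with Apol and a digit were taken, which gave 8 of 18058 genes: Apol6, Apol7b, Apol8, Apol9a, Apol9b, Apol10a, Apol10b and Apol11b. The family was singled out because Apol11b differed between the genotypes in these same 6 libraries. The values of Apol11b are therefore given as a description with no test, and the other 7 genes were tested where their level allowed. Levels of other Apol genes, such as Apol11a, were not analysed here.

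Brainstems of 1-month-old mice were compared, with 3 WT (C57BL/6J) and 3 Rag1−/− (B6.129S7-Rag1tm1Mom/J) samples of whole brainstem, each from a separate mouse, with no treatment of either genotype. Rag1 encodes part of the enzyme that rearranges antigen receptor genes, and mice without it lack mature T and B cells in all tissues. The loss is germline, so any difference may arise in any cell of the animal or at any age before sampling. RNA of the whole tissue was sequenced, so that fewer cells of a type and less RNA per cell cannot be told apart.

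Apolipoprotein L proteins bind lipids and membranes. Human APOL1 is secreted and kills trypanosomes, whereas most other members act inside cells, and they have been linked to membrane traffic and cell death. In the mouse the genes form a tandem array of closely related copies, and several members of the family, among them Apol9a and Apol9b, are switched on by interferon.

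Because the copies arose by duplication, parts of their transcripts are identical, and reads from such parts cannot be assigned to 1 gene. The first 120 coding bases of Apol11b and Apol9b are shown beside those of their nearest copies, from GENCODE transcripts on GRCm38, with capitals at each base that differs or has no partner in an alignment of the pair. In each gene they lie in 2 coding exons of chromosome 15. For Apol11b (minus strand) these are chr15:77640547-77640583 and chr15:77637976-77638058, and for Apol11a (plus strand) chr15:77510970-77511006 and chr15:77513488-77513570. For Apol9b (plus strand) they are chr15:77734508-77734590 and chr15:77735089-77735125, and for Apol9a (minus strand) chr15:77405581-77405663 and chr15:77405046-77405082.
Apol11b: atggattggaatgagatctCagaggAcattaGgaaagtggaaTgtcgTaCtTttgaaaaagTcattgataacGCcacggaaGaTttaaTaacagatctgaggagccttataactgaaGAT
Apol11a: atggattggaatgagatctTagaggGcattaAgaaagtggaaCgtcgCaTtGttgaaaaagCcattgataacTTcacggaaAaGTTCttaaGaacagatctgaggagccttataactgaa
Apol9b: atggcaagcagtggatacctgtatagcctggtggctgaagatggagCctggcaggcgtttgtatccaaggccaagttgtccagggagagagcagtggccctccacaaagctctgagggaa
Apol9a: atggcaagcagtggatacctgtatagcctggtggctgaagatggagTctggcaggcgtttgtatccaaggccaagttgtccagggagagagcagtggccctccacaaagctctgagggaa
Over this stretch Apol9b and Apol9a differed at 1 base, whereas Apol11b and Apol11a differed at 13 bases and Apol11a held 3 bases that Apol11b lacked. The last 3 bases shown of Apol11b have no partner because both sequences were ended at 120 bases. Over whole transcripts, Apol9a and Apol9b were 98.4% identical and Apol11b and Apol11a 94.6% identical across aligned bases. Apol11b was 85.5% identical to Apol10a and 82.5% identical to Apol10b.

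How much of each transcript can be read without ambiguity was measured by cutting it into every window of 50 bases and searching all GENCODE transcripts for the same letters on either strand. Of the windows of Apol11b, 19.2% were also held by another gene, namely 13.8% by Apol11a, 7.25% by Apol10a and 4.12% by Apol10b. The share was 57.5% for Apol9a and 51.4% for Apol9b, and in both cases the only other gene was the second member of the pair. Apol7b was the most ambiguous at 75.6%, with 73.4% held by Apol7e. Apol8 had no shared window, and Apol6 shared 0.751% of its windows with Mb, the myoglobin gene that overlaps it by 5596 bases on the opposite strand. Apol10a and Apol10b shared 16.9% and 6.11%. The read length was not given in the sources used here. With windows of 100 bases the share was 4.53% for Apol11b, 41.1% for Apol9a and 34.9% for Apol9b. Copies outside annotated transcripts were not searched.

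**Figure D1:**
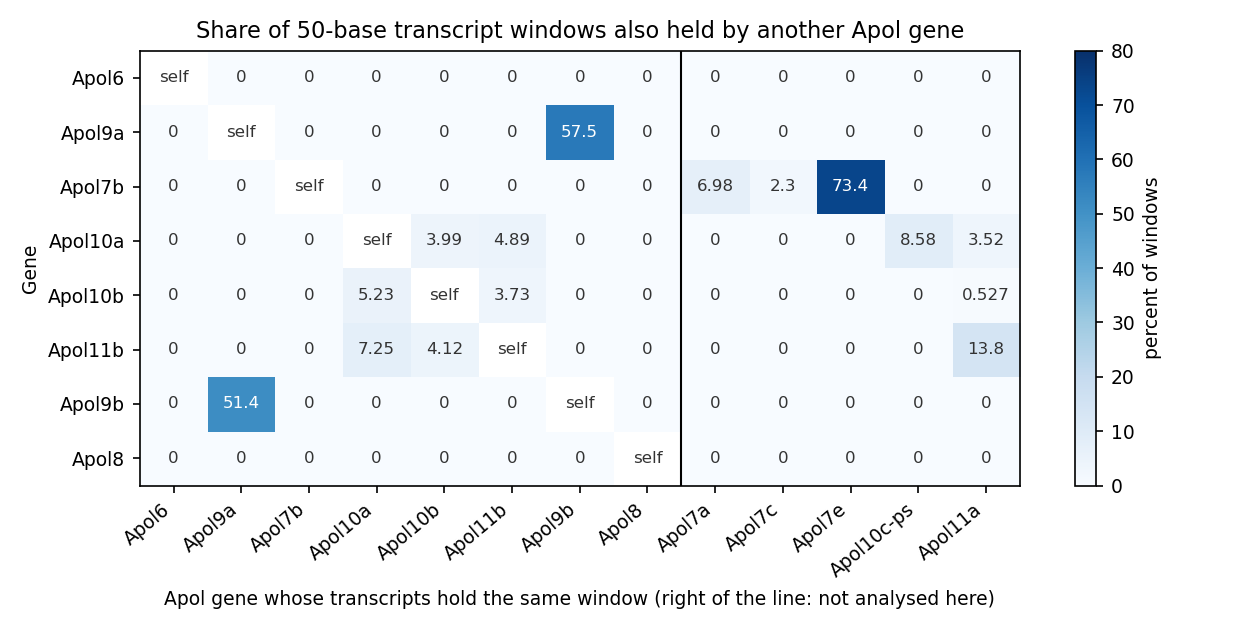
Share of the 50-base windows of each Apol transcript (rows) that transcripts of another Apol gene (columns) also hold, in percent. The genes right of the line were not analysed here. The Apol9a and Apol9b transcripts share 57.5% and 51.4% of their windows, Apol7b shares 73.4% with Apol7e, and Apol11b shares 13.8% with Apol11a.

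The libraries were checked before the family was read. Estimated depth, from the value of 1 read in CPM (reads per gene, scaled to library size), was between 34800000 and 46400000 reads in WT and between 31500000 and 35200000 reads in the Rag1−/− libraries. A level of 3 reads, taken as the floor, equals 0.0647 to 0.0951 CPM and covers counting error only. Rag1 was at 0.236, 0.388 and 0.115 CPM in WT replicates 1 to 3 and at 2.60, 4.02 and 2.90 CPM in replicates 1 to 3 labelled Rag1−/−. Rag1 transcripts were thus more abundant under the knockout label, and these libraries are therefore named by their label throughout, and each direction rests on that label. Which part of the Rag1 transcript gave these reads was not tested. Xist levels were 172, 177 and 2.93 CPM in WT replicates 1 to 3 and at most 0.738 CPM in the Rag1−/−-labelled libraries, so that WT replicate 3 alone among the WT libraries had Xist nearly as low as theirs. Ddx3y, a Y-linked gene, was at 45.2 CPM in WT replicate 3, at most 0.283 CPM in WT replicates 1 and 2, and from 53.4 to 56.2 CPM under the Rag1−/− label. The genotypes were thus unbalanced for these sex-linked transcripts, so a difference between the genotypes can hold one between the sexes. Neuron markers (6 of 6 found, summed level 3037 to 3264 CPM in WT and 2976 to 3161 CPM in the Rag1−/−-labelled libraries) and astrocyte markers (5 of 5 found, 2574 to 2721 and 2745 to 2873 CPM) were present in every library. The astrocyte sums did not overlap between the genotypes, and 1 of the 5 markers, Aqp4, was higher under the Rag1−/− label at an unadjusted p of at most 0.05, beside 2.27% of all genes tested. The median log2 fold change of the 5 was 0.015 with 2 negative values, and Slc1a2 held most of the sum, at a mean of 1618 CPM in WT and 1767 CPM under the Rag1−/− label. The 6 Hox genes used as markers of hindbrain position summed to 11.0 to 27.0 CPM in WT, to 33.3 and 26.3 CPM in replicates 1 and 3 labelled Rag1−/−, and to 2.00 CPM in replicate 2 labelled Rag1−/−, which stands apart from the other libraries in this measure.

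Apol11b (chr15:77633951-77643286, minus strand, 4 exons, coding length 1011 bases) is a member of the family with no well-described role. It was at 0.180, 0.156 and 0.374 CPM in WT replicates 1 to 3. It was at 1.54, 1.35 and 1.65 CPM in replicates 1 to 3 labelled Rag1−/−. The groups did not overlap, the values within the group labelled Rag1−/− were close together, and the highest WT value was that of replicate 3. The means were 0.236 ± 0.120 CPM (SD, n = 3) in WT and 1.51 ± 0.154 CPM (SD, n = 3) in the Rag1−/−-labelled libraries, a ratio of 6.4. On the scale of log2(CPM + 0.1), which understates changes of low transcripts, the difference was 2.31 with a standard error (SE) of 0.26.

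In estimated reads, rounded to whole numbers, Apol11b amounted to about 28 over the 3 WT libraries and about 154 over the 3 libraries labelled Rag1−/−. The ratio at equal depth was 6.71. These read numbers are approximate, since the estimates for Apol11b lay within 0.1 of a whole read in only 2 of the 6 libraries. Without replicate 2 labelled Rag1−/−, the library with few Hox transcripts, the log2 fold change was 2.39, and the part of dissection in it was not tested. When Xist above 100 CPM was entered as a covariate, the log2 fold change was 1.76, and this rests on WT replicate 3 as the only WT library with low Xist. Of the 16762 genes tested, those averaging 0.1 CPM or more, 3.98% had their lowest knockout-labelled value above their highest WT value and 0.0119% were higher with an adjusted p under 0.05 (limma-trend). As Apol11b was chosen on this contrast, nothing is read from its place among them.

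**Figure D2:**
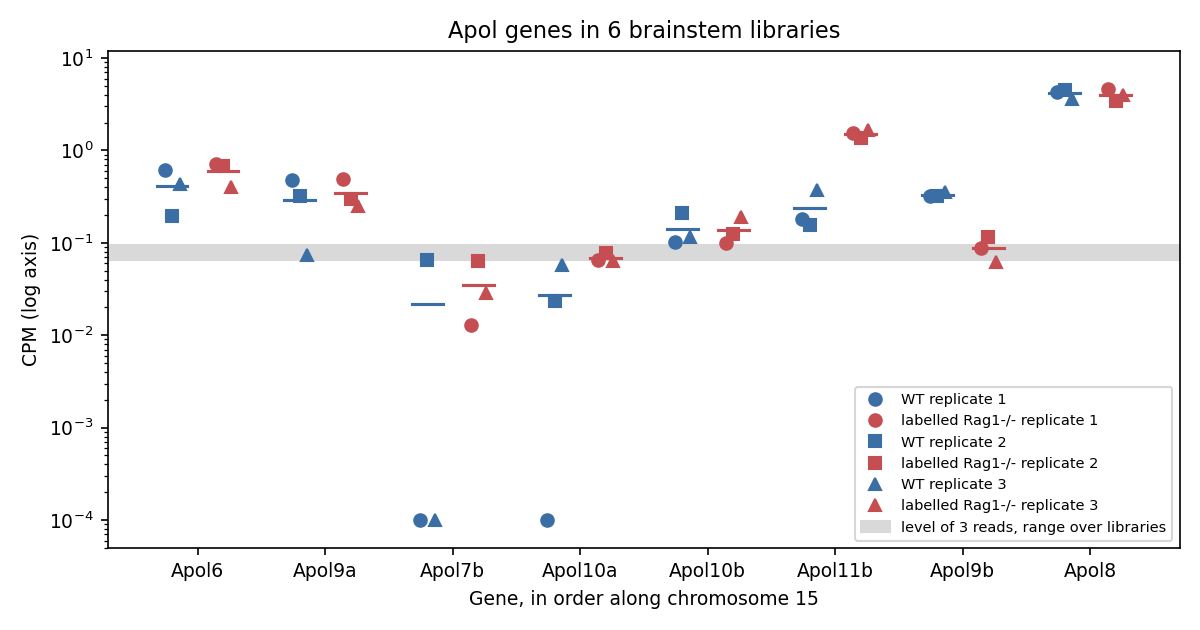
Level of each Apol gene in CPM (log axis) in every library, with genes in their order along chromosome 15. Bars are group means (n = 3), and the grey band is the level of 3 reads. Apol11b is at 1.35 to 1.65 CPM in the Rag1−/−-labelled libraries against 0.156 to 0.374 CPM in WT, Apol9b is lower in the Rag1−/−-labelled libraries, and Apol7b and Apol10a lie within or under the band.

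Apol10a and Apol10b, which share windows with Apol11b, were then set beside it. Apol10a (chr15:77477047-77491069, plus strand) stayed at or under 3 reads throughout, so no fold is given. It was at 0.0001, 0.0234 and 0.0576 CPM in WT replicates 1 to 3. In replicates 1 to 3 labelled Rag1−/− it was at 0.0647, 0.0783 and 0.0638 CPM. Every value labelled Rag1−/− lay above every WT value, as was so for 3.98% of the genes tested, but all lay under the floor. Apol10b (chr15:77584158-77596125, minus strand) was at 0.103, 0.209 and 0.115 CPM in WT replicates 1 to 3 and at 0.0990, 0.126 and 0.192 CPM in replicates 1 to 3 labelled Rag1−/−. The groups overlapped, and the log2 fold change was -0.014 (SE 0.31, 95% interval -0.72 to 0.69, adjusted p = 0.988 by limma-trend), with a sign that turned under quantile and median-of-ratios scaling. Summed over Apol11b, Apol10a and Apol10b, which leaves moves of reads among these 3 genes without effect, the level was 0.283, 0.388 and 0.546 CPM in WT and 1.70, 1.55 and 1.91 CPM in the Rag1−/−-labelled libraries. The difference of this sum was 1.32 CPM. Apol11b, chosen for its difference, supplied 1.51 of the mean 1.72 CPM under the Rag1−/− label, so the sum is a description with no test. Reads that Apol11a may have given to or taken from Apol11b were not tested.

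Apol9b (chr15:77729072-77736382, plus strand, 3 exons, coding length 930 bases), an interferon-induced member, had the lowest fold change of the 6 Apol genes tested or described in the fit. It was at 0.319, 0.321 and 0.358 CPM in WT replicates 1 to 3. It was at 0.0884, 0.117 and 0.0619 CPM in replicates 1 to 3 labelled Rag1−/−. Every library labelled Rag1−/− lay below every WT library, as was so for 14.4% of the genes tested, and replicate 3 labelled Rag1−/− lay under the level of 3 reads. The log2 fold change was -1.20 (SE 0.26, 95% interval -1.79 to -0.61), and it ran from -1.31 to -1.10 when each library was left out in turn. It was -0.29 with a pseudocount of 1 and -1.83 with one of 0.01, so its size depends on the pseudocount. Its unadjusted limma-trend p was 0.00136 and its adjusted p 0.265, so that it did not pass the threshold of 0.05 over all genes tested. By an exact permutation test (two-sided) p was 0.1, and no smaller value is possible with 3 samples a group. About 41 estimated reads over the WT libraries stood against about 9 over the Rag1−/−-labelled libraries, a level 3.74-fold higher in WT at equal depth, with an exact 95% binomial interval of 1.79 to 8.74 for counting error only. This is approximate, since the estimates for Apol9b lay within 0.1 of a whole read in only 1 of the 6 libraries.

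Apol9a (chr15:77403789-77411080, minus strand), the near-identical copy of Apol9b, varied more among WT libraries, and whether the copies differ in their change was not tested. It was at 0.483, 0.325 and 0.0733 CPM in WT replicates 1 to 3 and at 0.489, 0.295 and 0.252 CPM in replicates 1 to 3 labelled Rag1−/−. The groups overlapped, and WT replicate 3, the lowest of the 6 for Apol9a, was the highest for Apol9b. The log2 fold change of Apol9a was 0.31 (SE 0.45, 95% interval -0.71 to 1.33, adjusted p = 0.810 by limma-trend), and it was -0.20 without WT replicate 3 and 1.33 with the Xist covariate (adjusted p = 0.185 by limma-trend). Apol9b made up 39.8%, 49.7% and 83% of the summed Apol9a and Apol9b level in WT replicates 1 to 3, and 15.3%, 28.3% and 19.7% in replicates 1 to 3 labelled Rag1−/−. The share in WT replicate 3 rests on an Apol9a level under that library's 3-read floor of 0.0863 CPM.

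Since over 50% of the 50-base windows of either transcript are shared, the sum of the pair is less affected by how reads were divided. The sum was 0.803, 0.646 and 0.431 CPM in WT and 0.578, 0.412 and 0.313 CPM in the Rag1−/−-labelled libraries, with means of 0.627 ± 0.186 and 0.434 ± 0.134 CPM (SD, n = 3). These groups overlapped (exact two-sided permutation p = 0.2 on the sum, against 0.1 as the smallest possible). Entered as 1 gene in the same fit, the pair had a log2 fold change of -0.44 (SE 0.28, adjusted p = 0.559 by limma-trend), which is a smaller difference than that of Apol9b alone. How reads were divided between the copies was not tested.

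**Figure D3:**
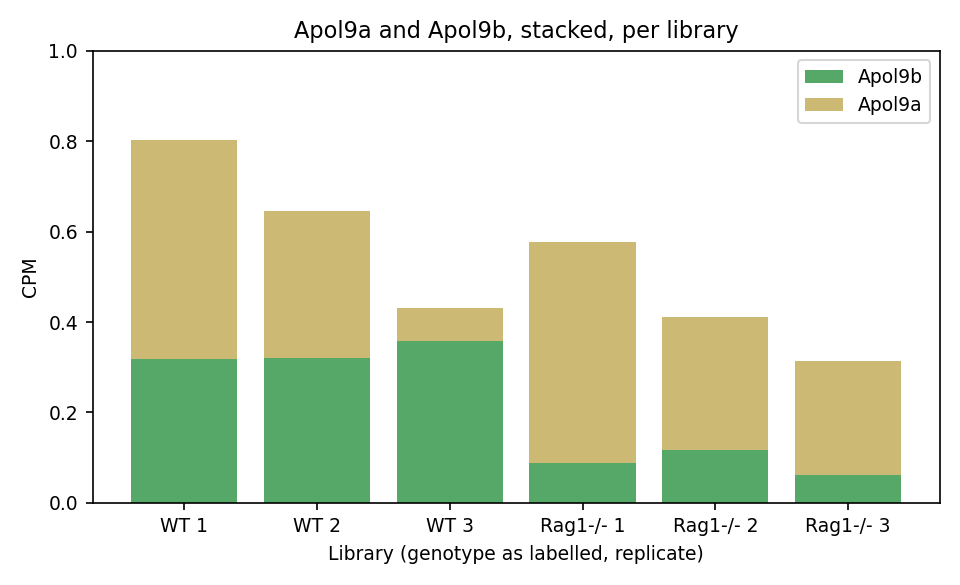
Level of Apol9b (green) and Apol9a (yellow) in CPM, stacked for each library, with genotypes as labelled. Apol9b is at 0.319 to 0.358 CPM in WT and 0.0619 to 0.117 CPM in the Rag1−/−-labelled libraries, while the total heights overlap between the genotypes.

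The remaining members were Apol8, Apol6 and Apol7b. Apol8 (chr15:77748613-77755229, minus strand), whose windows no other transcript holds, was at 4.27, 4.57 and 3.62 CPM in WT replicates 1 to 3 and at 4.65, 3.42 and 3.99 CPM in replicates 1 to 3 labelled Rag1−/−. Its log2 fold change was -0.050 (SE 0.14, 95% interval -0.37 to 0.27, adjusted p = 0.911 by limma-trend), and its sign turned with quantile normalization. With about 519 and 409 reads in the 2 groups, it was the best measured of the family. Apol6 (chr15:77045075-77057108, plus strand), whose human counterpart has been linked to cell death, was at 0.614, 0.194 and 0.431 CPM in WT and at 0.722, 0.679 and 0.399 CPM in the Rag1−/−-labelled libraries. The groups overlapped, with a log2 fold change of 0.51 (SE 0.36, 95% interval -0.30 to 1.32, adjusted p = 0.594 by limma-trend). Apol7b (chr15:77422209-77447460, minus strand) also stayed at or under 3 reads. Whether the counting used strand was not given in the sources used here, so reads of Apol6 and of Mb cannot be told apart where the genes overlap.

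In all, 6 of the 8 Apol genes passed the filter on low values and 2, Apol7b and Apol10a, did not. Of the 5 that passed other than Apol11b, 0 had an adjusted p under 0.05 by limma-trend, against 0.0477% of all genes tested, and Apol9b had an unadjusted p of at most 0.05, as did 11.6% of all genes tested. Per kilobase of transcript, Apol8 was the highest in WT at 1.48 ± 0.173 CPM per kilobase (SD, n = 3), above every value of any other member. Apol9b, Apol9a, Apol6 and Apol11b followed at 0.212, 0.192, 0.178 and 0.115 CPM per kilobase, and neighbours in this order overlapped, while Apol9b and Apol11b did not. Apol10b was at 0.0613 CPM per kilobase and overlapped with Apol11b. In the Rag1−/−-labelled libraries Apol11b was second in level at 0.734 ± 0.0745 CPM per kilobase, between Apol8 at 1.43 and Apol6 at 0.259, and its range met neither. Apol11b held 2.66% to 7.43% of the summed Apol CPM in WT and 20.1% to 24.9% in the Rag1−/−-labelled libraries. The summed level of the 7 other genes was 5.38 ± 0.631 CPM in WT and 5.30 ± 0.726 CPM in the Rag1−/−-labelled libraries (SD, n = 3, exact two-sided permutation p = 1).

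The 250 bases before the start of Apol11b and Apol9b are shown because these genes had the highest and the lowest log2 fold change of the family. They are from RefSeq promoters on GRCm38.p6, read 5′ to 3′ on the strand of the gene. Capitals mark matches, on either strand, to the core of the interferon-stimulated response element (ISRE), which is GAAA followed after any 2 bases by GAAA, and to the gamma-activated sequence (GAS), TTCNNNGAA.
Apol11b, chr15:77643287-77643536: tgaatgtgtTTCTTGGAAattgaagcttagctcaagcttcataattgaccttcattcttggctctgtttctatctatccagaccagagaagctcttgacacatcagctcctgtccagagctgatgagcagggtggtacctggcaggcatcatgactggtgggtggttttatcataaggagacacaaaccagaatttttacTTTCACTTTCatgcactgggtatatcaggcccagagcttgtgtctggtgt
Apol9b, chr15:77728822-77729071: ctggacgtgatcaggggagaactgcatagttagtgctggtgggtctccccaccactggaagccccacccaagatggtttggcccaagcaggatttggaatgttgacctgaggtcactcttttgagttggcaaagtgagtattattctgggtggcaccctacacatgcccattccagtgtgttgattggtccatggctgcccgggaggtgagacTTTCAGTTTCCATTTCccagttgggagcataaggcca
Apol11b held 1 ISRE match, TTTCACTTTC, and 1 GAS match, TTCTTGGAA. Apol9b held 2 ISRE matches that overlap, TTTCAGTTTC and TTTCCATTTC, and no GAS match. Of the Apol genes in the table, 7 had a promoter entry (all but Apol6), and 4 of these, Apol9a, Apol9b, Apol10a and Apol11b, held an ISRE match, against 2.98% of all 32851 promoters. A GAS match was found in 2 of them, Apol10a and Apol11b, against 7.02% of all promoters. The entry for Apol8 starts 1781 bases from the start of the gene in the table, so its bases are not those just before that gene model. The members share descent, so their promoters are not independent. The 250 bases before Apol11a were identical to those before Apol11b at 250 of 250 bases, and those of Apol9a and Apol9b were identical over the 228 bases that align. A match is a description of letters and not evidence of binding.

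The interferon response list, 39 genes with all 39 tested, was compared in the same fit. Of these 39, 37 had a negative log2 fold change, 29 had an unadjusted p of at most 0.05 and were lower in the Rag1−/−-labelled libraries (9.29% of all genes tested were), and 2 had an adjusted p under 0.05, both lower (0.0358% of all genes tested). The median log2 fold change was -0.49, beside -0.051 over all genes tested. Ifit3, an interferon-induced antiviral gene, fell from 15.4 ± 1.32 to 7.73 ± 1.20 CPM (SD, n = 3) with a log2 fold change of -0.99 (SE 0.12, adjusted p = 0.0443 by limma-trend). Oasl2, an oligoadenylate synthetase-like gene, fell from 7.26 ± 0.669 to 4.0 ± 0.203 CPM (SD, n = 3) with a log2 fold change of -0.84 (SE 0.10, adjusted p = 0.0443 by limma-trend). The count of 2 became 0 with median-of-ratios rescaling, with the replicate number as a block, and without WT replicate 1, WT replicate 2, or replicate 1 or 3 labelled Rag1−/−. It was 1 without replicate 2 labelled Rag1−/− and 3 without WT replicate 3. The summed level of the list was 350 to 399 CPM in WT and 274 to 290 CPM in the Rag1−/−-labelled libraries.

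The other apolipoproteins, most of which carry lipids outside cells, were compared as genes of like name. Of 18 listed, 11 were tested, and 0 had an adjusted p under 0.05 and 0 an unadjusted p of at most 0.05 by limma-trend. The median log2 fold change was -0.021. The most abundant were Apoe, the main lipid carrier of the brain, at 1758 ± 82.0 and 1791 ± 144 CPM, Clu, a chaperone, at 661 ± 22.6 and 633 ± 26.3 CPM, and Apod, a lipocalin, at 391 ± 50.2 and 396 ± 31.4 CPM (SD, n = 3, WT and labelled Rag1−/−). The smallest p was that of Apoc1 (log2 fold change -0.23, SE 0.17, adjusted p = 0.608 by limma-trend), followed by Clu (-0.064) and Apoa2 (-0.15). Apold1 (chr6:134982001-134986836, plus strand), an endothelial early response gene with an Apol-like domain, lies outside the cluster. It was at 3.66, 3.38 and 3.85 CPM in WT and at 2.95, 2.66 and 2.82 CPM in the Rag1−/−-labelled libraries, lower in each of them than in any WT library, as were 14.4% of all genes tested. Its log2 fold change was -0.36 (SE 0.11, unadjusted p = 0.0111, adjusted p = 0.353 by limma-trend), and 9.29% of all genes were lower at an unadjusted p of at most 0.05.

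The region around the family was read next. Of the 12 other genes that lie between the Apol genes or next to them within 250 kb, 11 were tested, and 0 had an adjusted p under 0.05 by limma-trend. An unadjusted p of at most 0.05 was found for 2 of the 11, beside 11.6% of all genes tested, namely Rbfox2, a splicing regulator (log2 fold change -0.10, SE 0.042, adjusted p = 0.408 by limma-trend), and Cacng2, an AMPA receptor auxiliary subunit (0.12, SE 0.044, adjusted p = 0.376). The log2 fold changes of the 11 genes ran from -0.12 for Zfp647 to 0.24 for Mb. Mb was at 0.543, 0.539 and 0.518 CPM in WT and at 0.664, 0.652 and 0.626 CPM in the Rag1−/−-labelled libraries, with an adjusted p of 0.618 by limma-trend. The log2 fold changes of Commd5, Rpl8, 1110038F14Rik, Myh9, Txn2, Foxred2 and Eif3d lay between those of Zfp647 and Mb, and 1700109K24Rik averaged under 0.1 CPM and was not tested. Myh9, the nearest gene past Apol8, was at 72.4 ± 3.26 and 68.9 ± 3.99 CPM (SD, n = 3).

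**Figure D4:**
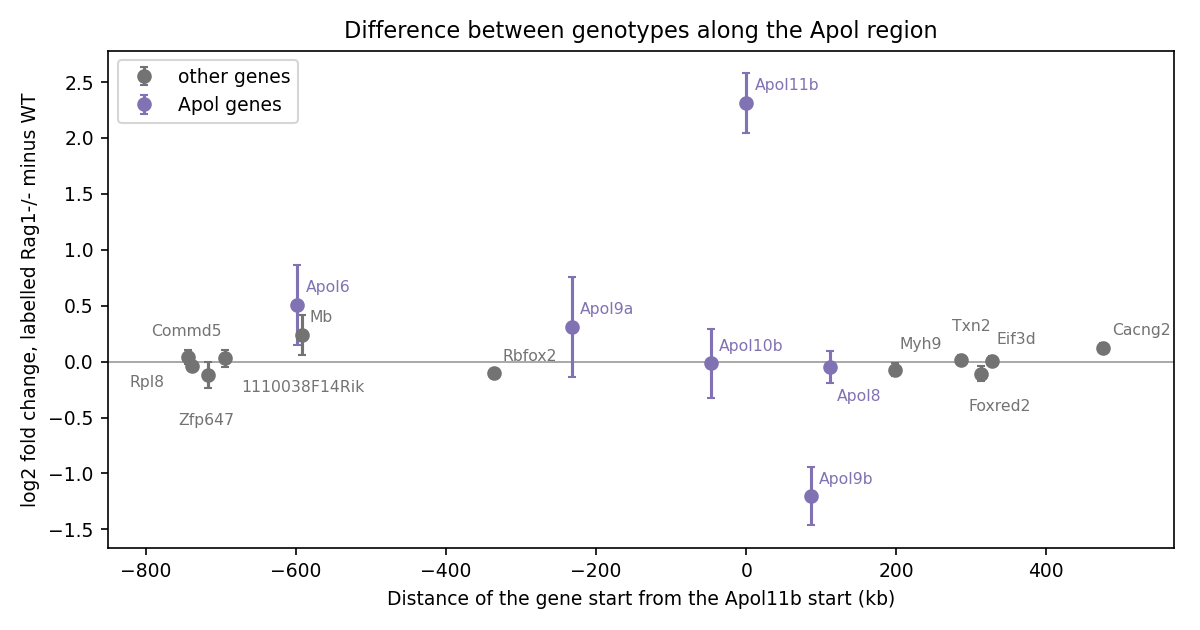
Log2 fold change of each tested gene (labelled Rag1−/− minus WT, bars are standard errors) against the distance of its start from that of Apol11b in kb. The 11 other genes lie between -0.12 and 0.24, Apol11b lies at 2.31 and Apol9b at -1.20.

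The genes whose levels ran closest to those of Apol11b were found by the root mean square difference of centred log2(CPM + 0.1) over the 6 libraries. The value for Apol11b against its own mean was 1.19. Among the closest 5 were the histone gene Hist2h4 (0.68), Gm5424 (0.69), Gm35612 (0.73) and the histone gene Hist1h2ap (0.74). Hist2h4 was at 0.0473, 0.0953 and 0.0663 CPM in WT and at 0.261, 0.317 and 0.256 CPM in the Rag1−/−-labelled libraries. WT replicates 1 and 3 lay under their 3-read floors of 0.0708 and 0.0863 CPM, and the WT mean was 0.0696 CPM. Hist2h4 thus passed the filter of 0.1 CPM through the Rag1−/−-labelled libraries. Its rank in closeness was 70 with a pseudocount of 1. Of the closest 5 genes, 1 was also among the closest 5 with a pseudocount of 1. Histone genes belong to families of near-identical copies, so their reads can be shared.

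Marker lists of other cells were read beside the family, and no marker found in the table was at its lowest value in all 6 libraries. Red blood cell markers (5 of 5 tested) summed to 646 to 1880 CPM in WT and 895 to 1438 CPM in the Rag1−/−-labelled libraries, and 0 had an unadjusted p of at most 0.05. Oligodendrocyte markers summed to 17230 to 20282 CPM in WT and 22379 to 23917 CPM in the Rag1−/−-labelled libraries, with 5 of 5 higher at an unadjusted p of at most 0.05 (2.27% of all genes tested) and 0 at an adjusted p under 0.05. Marrow granulocyte markers summed to 5.12 to 16.9 CPM in WT and 3.15 to 5.52 CPM in the Rag1−/−-labelled libraries, with 4 of 6 tested (Mpo, S100a9 and Ngp among them) lower at an unadjusted p of at most 0.05, beside 9.29% of all genes tested. Choroid plexus markers summed to 477 to 1221 CPM in WT and 546 to 622 CPM in the Rag1−/−-labelled libraries, and 1 of 6, Clic6, was lower at that level, also beside 9.29% of all genes. Microglia markers (144 to 161 and 145 to 158 CPM) and endothelial markers (186 to 223 and 202 to 219 CPM) overlapped between the genotypes. T cell markers, of which 3 of 6 were found, summed to 0.733 to 1.52 CPM in WT and 0.887 to 1.28 CPM in the Rag1−/−-labelled libraries. B cell markers, of which 4 of 5 were found, summed to 0.661 to 0.978 and 0.444 to 0.627 CPM. The liver list is carried by Ttr, which is also in the choroid plexus list, and summed to 445 to 1159 and 515 to 582 CPM. The part of these cells in the levels of Apol11b and Apol9b was not tested.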

How the data were processed

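Total RNA of snap-frozen brainstems was sequenced on an Illumina HiSeq. Per the study's methods and the submitters' processing notes, the authors aligned reads to mm10 with STAR 2.5.3a, used Partek Flow to count reads per RefSeq gene, and deposited CPM (counts scaled to library size), whose lowest value is 0.0001. Strand, read length and the treatment of reads with several matches were not given in the sources used here.

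The depth was estimated from the step that 1 read makes among low CPM values. Since only 85.4% to 87.0% of low values lay within 0.1 read of a whole multiple, read counts could not be rebuilt and no count model was fitted across genes. Reads in the text are estimates, CPM divided by that step, and binomial intervals use their rounded sums. Groups and replicate numbers came from sample titles, and intervals and floors cover counting error only.

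Genes averaging 0.1 CPM or more (16762) were tested on log2(CPM + 0.1) with limma-trend (limma 3.58.1, R 4.3.3), two-sided, with Benjamini-Hochberg adjustment over all genes, and the procedure was tested on simulated data. The members, lists, markers and tests were chosen with earlier results of these data known. The genes named are all Apol rows, Rag1, Xist, Ddx3y, Apold1, the neighbours within 250 kb (at most 5 a side), the 5 genes closest to Apol11b (1 is not reported here), and list members with an adjusted p under 0.05 or, in lists with none, at most the 3 with the smallest p (for apolipoproteins also the 3 most abundant). Lists were interferon response, other apolipoproteins and markers of neuron, hindbrain position, oligodendrocyte, astrocyte, microglia, endothelial, T cell, B cell, choroid plexus, red blood cell, marrow granulocyte and liver. Alternatives were other pseudocounts, filters, scalings and variance models, a replicate block, a term for Xist and leaving out each library. The sum of Apol9a and Apol9b as 1 gene was chosen after their values were seen. Transcripts were GENCODE M21 (GRCm38), 1 per gene, the longest with a RefSeq match, aligned with Biopython 1.88. Gene coordinates follow the deposited mm10 table, each end taken 1 base before its stop.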

Additional observations from a re-analysis of the deposited data

How the results depend on the processing

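None of the Apol genes other than Apol11b had an adjusted p under 0.05 in any of the 16 alternatives, 1 of which (mean CPM of at least 1) tested only Apol8. Apol9b kept a negative log2 fold change under the 15 alternatives that tested it, from -1.83 to -0.29, with an adjusted limma-trend p from 0.131 to 0.709. Apol11b, at 2.31, was 1.03 with pseudocount 1, 2.73 with pseudocount 0.01 and 1.76 with the Xist term, and ranged from 2.14 to 2.59 with 1 library left out. The size of both differences thus depends on the pseudocount. Log2 fold changes of other members turned sign. Apol10b was 0.078 with quantile normalization, 0.13 with the Xist term and 0.011 with median-of-ratios rescaling, and Apol8 was 0.031 with quantile normalization and 0.14 with the Xist term. With 1 library left out, Apol10b ranged from -0.17 to 0.17, Apol8 from -0.16 to 0.057 and Apol9a from -0.20 to 0.68. With the Xist term Apol9a was 1.33, against 0.31 without it. The summed Apol level was 1.19 CPM higher in the libraries labelled Rag1−/− with Apol11b, and the difference was -0.0874 CPM without it. The count of interferon response genes was 0 with median-of-ratios rescaling, 0 with the replicate block and from 0 to 3 with 1 library left out. What caused these shifts was not tested. Of the 5 genes closest to Apol11b, 1 was shared with pseudocount 1.

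With windows of 75 and 100 bases, the share of windows held by another gene was 10.1% and 4.53% for Apol11b, 47.9% and 41.1% for Apol9a, 41.6% and 34.9% for Apol9b, 63.8% and 56.9% for Apol7b, and 6.56% and 1.81% for Apol10a. For Apol10b it was 1.51% and 0%.

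Over genes, the deviations of samples sharing a number correlated at 0.0926, -0.220 and -0.0183 for numbers 1 to 3. These 3 values cannot show whether the numbers mark samples that were handled together. With the replicate block 3 genes of all tested had an adjusted p under 0.05 by limma-trend, against 8 without it. The planned edgeR and DESeq2 tests were left out, since read counts could not be rebuilt. Depth limits Apol7b and Apol10a, at 3 reads or fewer in each library, and Apol9b, at about 9 reads over the libraries labelled Rag1−/−.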
